A study of Mus musculus with 30 samples.

Results

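The genes Odc1, Amd1, Srm, Sms, Oaz1, Oaz2, Azin1, Sat1 and Smox encode the enzymes that make and break down polyamines and the antizyme proteins that control the first of these enzymes. They were taken by name, as the rows of the deposited count table whose Ensembl identifier, without its version, maps to these symbols in GENCODE M21. This gave 9 of the 57186 rows, by name and not by a threshold on measured values. All 9 passed the filter on low counts in each cell line, so each entered every comparison.

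The study sequenced messenger RNA from 30 libraries of mouse cells. NIH/3T3, an established line of embryonic fibroblasts, was grown in DMEM with serum. CGR8 cells are embryonic stem cells and were kept in N2B27 with 2i and LIF, which hold such cells in the pluripotent state. Cells were treated with cycloheximide at 0.1 µg/mL, a drug that blocks the elongation step of translation, and collected after 0, 1, 2, 5 or 48 h, with 3 replicates (A, B and C) for each line and time. The stated aim was to follow the transcriptome as protein synthesis is inhibited, with each time compared with 0 h inside a line. Every group, the 0 h controls included, carries the genotype given as ROSA26 SLT knock-in, and whether either line is a single clone is not given in the sources used here. Nothing in the labels says that replicates came from separate cultures, so the p-values measure only the spread between these libraries, which may be technical. No untreated group is given for the later times, so the drug and time in culture cannot be told apart. Each line had its own medium, so line and medium cannot be told apart either.

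Putrescine, spermidine and spermine are small positively charged molecules that bind nucleic acids and are needed for growth. Ornithine decarboxylase (Odc1) makes putrescine, S-adenosylmethionine decarboxylase (Amd1) supplies the aminopropyl groups, and spermidine synthase (Srm) and spermine synthase (Sms) attach them. Polyamines promote a ribosomal frameshift on antizyme mRNA. The full-length antizyme (Oaz1, Oaz2) then binds ornithine decarboxylase, takes it to the proteasome without ubiquitin and lowers polyamine uptake. Antizyme inhibitor (Azin1), a relative of ornithine decarboxylase without its activity, binds antizyme and frees the enzyme. In the opposite direction, spermidine/spermine N1-acetyltransferase (Sat1) marks polyamines for export or oxidation, and spermine oxidase (Smox) turns spermine back into spermidine. Only mRNA was measured here.

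The frameshift site is the control point that defines the antizyme mRNAs, and it is shown for Oaz1, Oaz2 and Oaz1-ps, a copy of Oaz1. Each stretch below runs 5′ to 3′, and the capitals mark the stop codon of the first reading frame, where the ribosome shifts. The stretches were read from GENCODE M21 transcripts and lie on GRCm38 at chr10:80828279-80828315 (plus strand, Oaz1), chr9:65686256-65686292 (plus strand, Oaz2) and chr17:17345916-17345952 (minus strand, the processed pseudogene Oaz1-ps).
Oaz1: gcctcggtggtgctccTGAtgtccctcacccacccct
Oaz2: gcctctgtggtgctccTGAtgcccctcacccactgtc
Oaz1-ps: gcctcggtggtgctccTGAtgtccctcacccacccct
Oaz1 and Oaz2 differ at 6 of these 37 bases, whereas Oaz1 and Oaz1-ps are identical over them. Oaz1-ps shares 99.3% identity with Oaz1 over 685 aligned bases, so reads from there cannot be assigned with certainty. Its row held 3.03% as many counts as that of Oaz1. The largest such copy of any member was Gm7993, a processed pseudogene with 95.7% identity to Odc1, whose row held 11.2% as many counts as Odc1. Adding the counts of all annotated copies to their member changed none of the 135 calls (9 genes in 15 comparisons).

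Library totals were 18216993 to 30503109 counts (median 24250137). The stem cell markers Pou5f1, Nanog, Zfp42 and Esrrb were at most 0.377 CPM (counts-per-million) in NIH/3T3 and at least 418 CPM in CGR8, while Col1a1, Col1a2, Col3a1 and Lox were at least 219 CPM in NIH/3T3 and at most 0.719 CPM in CGR8. Of the other 4 markers, Sox2 (20.0 to 31.4 CPM in NIH/3T3, 248 to 440 CPM in CGR8) and S100a4 (21.4 to 48.5 CPM, and 0 in CGR8) separated the lines, and Klf4 (191 to 396 CPM, 137 to 394 CPM) and Fn1 (868 to 2010 CPM, 431 to 1130 CPM) did not. A set of 6 libraries stood apart from their replicates, with log2 differences to them whose SD was above 0.3, a limit chosen after the values were seen: NIH/3T3 1 h C and 2 h A, and CGR8 0 h B, 2 h A, 5 h A and 5 h C. Leaving these libraries out keeps only replicate B at CGR8 5 h. Values of that group in such a fit therefore have no replicate spread of their own. The summed level of 83 ribosomal protein genes also moved with time. In NIH/3T3 it was 65060 to 72970 CPM at 0 h, 86390 to 93260 CPM at 2 h and 56940 to 58500 CPM at 48 h, and in CGR8 it was 70330 to 92680 CPM at 0 h and 107400 to 167900 CPM at 5 h. Its part in the results was not tested.

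Levels are given as CPM after TMM scaling, which is a share of the library: fewer cells of a kind and less RNA per cell cannot be told apart. A change in total mRNA per cell is not seen, so rises and falls are relative to the other genes. A gene was called changed where the quasi-likelihood test of edgeR gave an adjusted p (Benjamini-Hochberg, over all genes tested) under 0.05, and comparisons with 0 h in one line share the same 3 control libraries. In NIH/3T3 more of the 9 genes were called higher than lower at 2 and 5 h, and more lower than higher at 48 h. None of the 9 was called at 1 h (0 with an unadjusted p under 0.05, 0 by DESeq2 and 2, Srm and Azin1, by voom with quality weights), when 0.732% of the 13941 genes tested were called. At 2 h, 5 of 9 rose and none fell, against 35.0% of all genes called (16.1% higher, 18.9% lower). At 5 h, 7 of 9 rose and 1 fell, against 51.0% (24.0% higher, 27.1% lower). At 48 h, 1 of 9 rose and 5 fell, against 52.3% (26.7% higher, 25.6% lower), and the median log2 fold change was -0.64 for the 9 genes and -0.01 for all genes. From 5 to 48 h, a comparison that does not use the controls, 8 of 9 fell and none rose, against 65.6% called and 31.4% lower.

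In the edgeR fits, fewer of the 9 genes were called in CGR8 than in NIH/3T3 at 2, 5 and 48 h. By edgeR, none was called at 1 h (1 with an unadjusted p under 0.05, 0 by DESeq2, 1 by voom) or at 2 h (1, 0 and 0), when 0.270% and 19.9% of the 15933 genes tested were called, the 2 h share made up of 8.97% higher and 11.0% lower. At 5 h, 2 of 9 rose and 2 fell, against 52.1% called (24.9% higher, 27.2% lower). There voom called 8 of 9 (63.1% of all genes), and 9 of 9 at 5 h in NIH/3T3 (67.5%). At 48 h, 1 of 9 rose and 2 fell, against 27.8% (12.2% higher, 15.6% lower). The edgeR totals of CGR8 at 5 and 48 h were near the share over all genes. From 5 to 48 h, 1 rose and 2 fell, against 57.5% (28.9% higher, 28.6% lower). The median log2 fold change of the 9 genes was 0.13 at 5 h and 0.07 at 48 h, beside -0.01 and -0.0027 for all genes. With the 6 libraries that stood apart left out, the members called were 2 at 2 h (Srm and Azin1) and 4 at 48 h, against 32.2% and 34.4% of all genes in that fit. Only replicate B is then left at CGR8 5 h, so no count is given for that time. In NIH/3T3 the members called were then 7 at 2 h, 9 at 5 h and 8 at 48 h, against 54.0%, 64.2% and 66.8%.

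**Figure D1:**
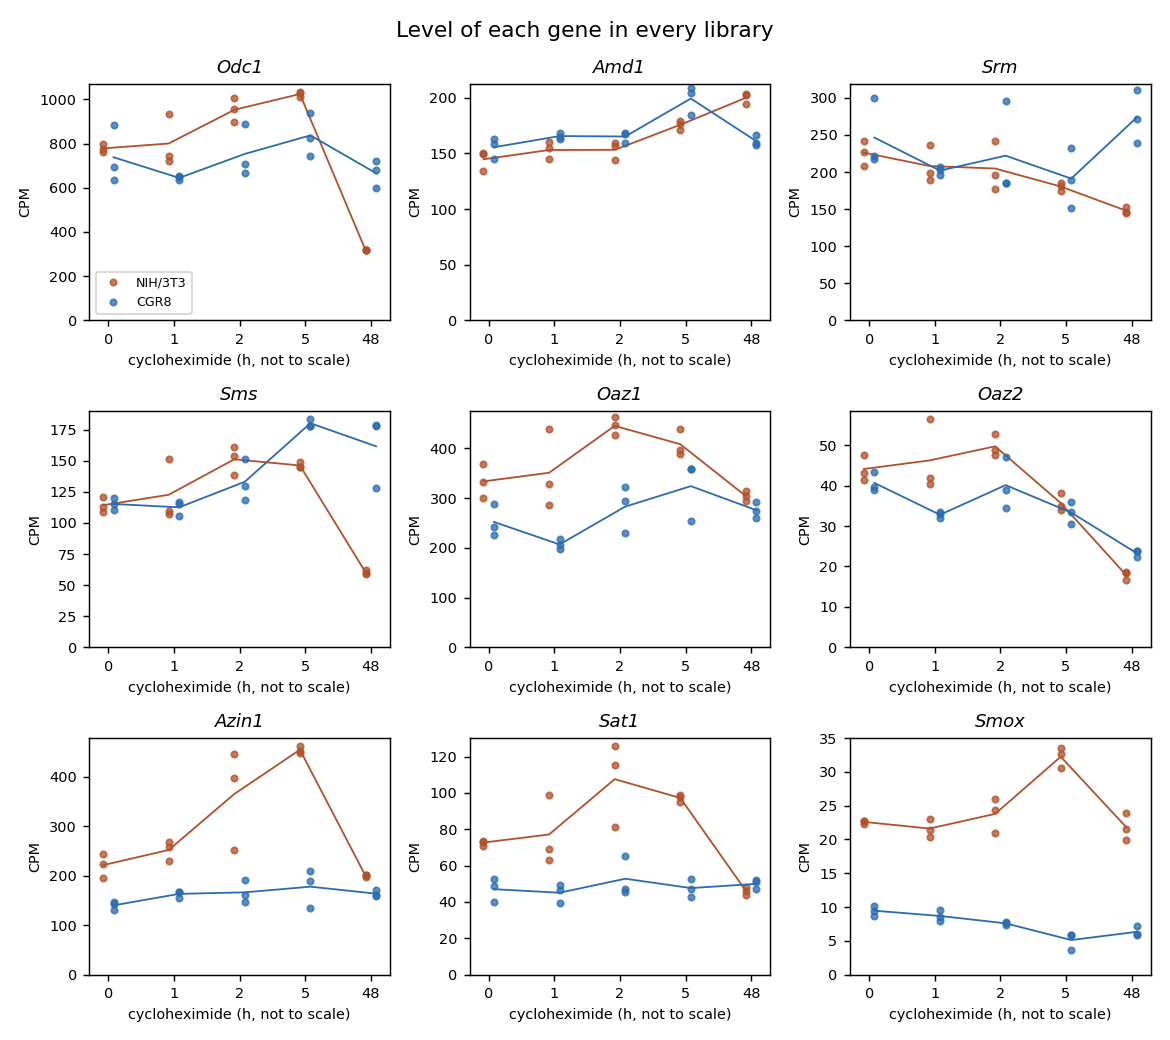
CPM (y axis, from 0) of the 9 genes in each of the 30 libraries by hours of cycloheximide (x axis, not to scale); points are libraries and lines join the means of 3 replicates, NIH/3T3 in orange and CGR8 in blue. Odc1 in NIH/3T3 goes from 1008 to 1035 CPM at 5 h to 316 to 319 CPM at 48 h, while the CGR8 libraries stay between 598 and 939 CPM.

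Before treatment the order of the levels was nearly shared by the lines. Levels of different genes were compared as CPM per kb of the longest protein-coding transcript. In NIH/3T3 at 0 h, Odc1 (352 ± 8.52 CPM per kb, SD, n = 3) and Oaz1 (312 ± 31.8) were highest and their libraries overlapped. Srm (169 ± 12.5) and Sat1 (62.6 ± 1.27) came next, then Azin1 (45.5 ± 5.01) and Amd1 (45.2 ± 2.78), which overlapped, then Sms (30.7 ± 1.58), Oaz2 (23.9 ± 1.75) and Smox (9.83 ± 0.0983). In CGR8 the order was Odc1 (334 ± 58.7 CPM per kb), Oaz1 (235 ± 29.6), Srm (184 ± 35.0), Amd1 (48.6 ± 2.96), Sat1 (40.5 ± 5.54), Sms (31.0 ± 1.32), Azin1 (28.8 ± 1.60), Oaz2 (22.0 ± 1.30) and Smox (4.12 ± 0.328). There Oaz1 overlapped with Srm, Amd1 with Sat1, and Sms with Azin1.

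At 0 h, 4 of 9 genes were lower in CGR8 than in NIH/3T3 and none was higher, when 79.1% of the 17549 genes tested in both lines were called (36.3% lower). Smox was at 0.419-fold of the NIH/3T3 level (log2 -1.26, SE 0.13, edgeR adjusted p = 5.37e-10), with 8.72 to 10.2 CPM in CGR8 and 22.3 to 22.7 CPM in NIH/3T3. Azin1 was at 0.633-fold (log2 -0.66, SE 0.15, edgeR adjusted p = 0.000236) and Sat1 at 0.647-fold (log2 -0.63, SE 0.16, edgeR adjusted p = 0.000628). Oaz1 was at 0.756-fold (log2 -0.40, SE 0.14, edgeR adjusted p = 0.00971), a call that ended without CGR8 0 h C (adjusted p = 0.0635). The 4 synthesis genes and Oaz2 were not called between the lines, with log2 differences from -0.12 to 0.12.

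The synthesis enzymes were led by Odc1, the entry step (GRCm38 chr12:17544794-17551505, plus strand; positions are those of GENCODE M21 throughout). In NIH/3T3 it was at 759.9, 797 and 777 CPM at 0 h (replicates A, B and C), 744, 721 and 936 CPM at 1 h, 1006, 896 and 956 CPM at 2 h, 1029, 1008 and 1035 CPM at 5 h, and 319, 317 and 316 CPM at 48 h. All libraries at 2 and 5 h lay above the 0 h libraries, and all at 48 h lay below them. At 1 h replicate C alone was high, and it is one of the libraries that stood apart. The change was 1.25-fold at 2 h (log2 0.32, SE 0.10, edgeR adjusted p = 0.0173), 1.35-fold at 5 h (log2 0.43, SE 0.10, edgeR adjusted p = 0.00156) and 0.400-fold at 48 h (log2 -1.32, SE 0.10, edgeR adjusted p = 3.79e-08). The 2 h call ended without NIH/3T3 0 h A (adjusted p = 0.0666). From 5 to 48 h Odc1 fell to 0.297-fold (log2 -1.75, SE 0.10, edgeR adjusted p = 1.11e-09).

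In CGR8, Odc1 was at 636, 884 and 694 CPM at 0 h, 827, 939 and 745 CPM at 5 h and 598, 722 and 678 CPM at 48 h. The 5 and 48 h groups both overlapped the controls but not each other, and replicate B at 0 h, the highest control, is a library that stood apart. By edgeR no time was called against 0 h, nor was 48 h against 5 h (log2 -0.29, edgeR adjusted p = 0.0786). Among the alternatives with replicates at 5 h, voom called 5 h against 0 h. A filter on the mean level and voom called 48 h against 5 h. The 95% interval of the log2 change ran from -0.16 to 0.41 at 5 h and from -0.44 to 0.13 at 48 h. With the 6 libraries that stood apart left out, which keeps only replicate B at 5 h, the log2 change of Odc1 was 0.46 at 5 h. Its 48 h value was -0.01.

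Amd1 (chr10:40287458-40302186, minus strand) supplies the aminopropyl donor and was the sole member that was higher at 48 h than at 0 h in NIH/3T3. Its level there was 149.6, 150.2 and 134 CPM at 0 h, 171, 179 and 177 CPM at 5 h, and 203, 203 and 194 CPM at 48 h. The libraries at 5 and 48 h lay above all controls. The rise was 1.24-fold at 5 h (log2 0.31, SE 0.08, edgeR adjusted p = 0.00257) and 1.35-fold at 48 h (log2 0.44, SE 0.08, edgeR adjusted p = 0.000166). In CGR8, Amd1 was at 145, 163 and 158 CPM at 0 h, 184, 205 and 209 CPM at 5 h, and 157, 159 and 166 CPM at 48 h. It was thus above the controls at 5 h and back among them at 48 h. The rise at 5 h was 1.23-fold (log2 0.30, SE 0.09, edgeR adjusted p = 0.00717), and the fall from 5 to 48 h was 0.831-fold (log2 -0.27, SE 0.09, edgeR adjusted p = 0.014). The 5 h call ended without CGR8 0 h A, with library totals as the scaling, without the filter, and in a fit of the 2 groups alone (adjusted p up to 0.128). That from 5 to 48 h ended in 5 of 16 alternatives (up to 0.248), among them leaving out CGR8 5 h C, 48 h A or 48 h B.

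Srm (chr4:148591503-148594993, plus strand) makes spermidine. In NIH/3T3 it was at 227, 209 and 242 CPM at 0 h, 181, 186 and 174 CPM at 5 h, and 153, 145 and 145 CPM at 48 h. The 5 and 48 h libraries lay below the controls. The fall was 0.641-fold at 48 h (log2 -0.64, SE 0.11, edgeR adjusted p = 0.000186). At 5 h it was 0.817-fold (log2 -0.29, SE 0.11, edgeR adjusted p = 0.0395), and this call ended in 7 of 16 alternatives, RLE factors, DESeq2 and 5 single libraries left out (0 h A or C, or 5 h A, B or C) among them, with adjusted p up to 0.161. In CGR8, Srm was at 221, 301 and 218 CPM at 0 h, 232, 189.6 and 152 CPM at 5 h, and 239, 311 and 271 CPM at 48 h. The 48 h libraries lay above those at 5 h, and both overlapped the controls. Neither time was called against 0 h by edgeR (95% interval of the log2 change -0.81 to -0.03 at 5 h, where the adjusted p was 0.0662 by edgeR, and -0.25 to 0.53 at 48 h). The 5 h fall was called with library totals, without a filter, by voom and without CGR8 5 h A. A rise at 48 h was called by voom and without the libraries that stood apart. Srm rose 1.48-fold from 5 to 48 h (log2 0.56, SE 0.19, edgeR adjusted p = 0.0161), a call lost without CGR8 5 h C or 48 h B (adjusted p up to 0.0678).

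Sms (chrX:157443855-157492287, minus strand) makes spermine and went in opposite directions in the lines at 48 h. In NIH/3T3 it was at 109, 121 and 113 CPM at 0 h, 139, 161 and 154 CPM at 2 h, 145, 149 and 145 CPM at 5 h, and 58.8, 62.4 and 60.0 CPM at 48 h. CGR8 held it at 110.3, 115 and 120.2 CPM at 0 h, 178, 184 and 178 CPM at 5 h, and 128, 178 and 179 CPM at 48 h. In neither line did the 5 or 48 h libraries overlap the controls, and CGR8 48 h A was the lowest of its group. The NIH/3T3 change was 1.35-fold at 2 h (log2 0.43, SE 0.11, edgeR adjusted p = 0.00843), 1.31-fold at 5 h (log2 0.39, SE 0.11, edgeR adjusted p = 0.00898) and 0.518-fold at 48 h (log2 -0.95, SE 0.12, edgeR adjusted p = 5.08e-06). The CGR8 change was 1.51-fold at 5 h (log2 0.59, SE 0.12, edgeR adjusted p = 0.00078) and 1.39-fold at 48 h (log2 0.48, SE 0.12, edgeR adjusted p = 0.00766). The CGR8 48 h call ended without 48 h C (adjusted p = 0.0505).

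**Figure D2:**
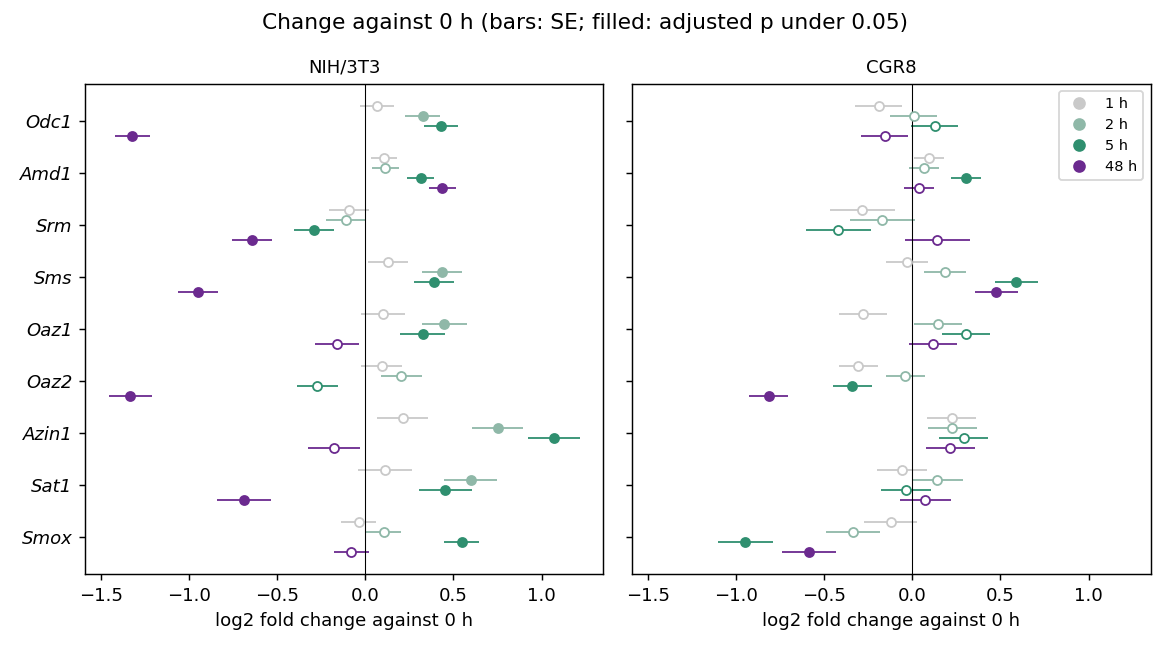
log2 fold change against 0 h (x axis) of each gene (y axis) at 1, 2, 5 and 48 h in NIH/3T3 (left) and CGR8 (right); bars are SE and filled points have an adjusted p under 0.05. In NIH/3T3, Odc1, Sms, Oaz2, Sat1 and Srm lie left of 0 at 48 h, from -1.33 to -0.64, while in CGR8 Sms is at 0.48.

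Oaz1 (chr10:80826656-80829290, plus strand), the more abundant antizyme mRNA per kb, rose early in NIH/3T3. It was at 301, 332 and 369 CPM at 0 h, 446, 427 and 462 CPM at 2 h, 439, 396 and 389 CPM at 5 h, and 294, 304 and 314 CPM at 48 h. The 2 and 5 h libraries lay above the controls and the 48 h libraries overlapped them. The rise was 1.36-fold at 2 h (log2 0.45, SE 0.13, edgeR adjusted p = 0.0124) and 1.25-fold at 5 h (log2 0.32, SE 0.13, edgeR adjusted p = 0.0398). The 2 h call ended without NIH/3T3 0 h A (adjusted p = 0.067), and the 5 h call without 0 h A or B or any 1 of the 5 h libraries (up to 0.165). At 48 h the 95% interval of the log2 change was -0.43 to 0.10. In CGR8, Oaz1 was at 242, 288 and 227 CPM at 0 h, 359, 359 and 254 CPM at 5 h, and 274, 292 and 261 CPM at 48 h. CGR8 5 h C lay among the controls, and no time was called by edgeR (log2 0.31 at 5 h, 95% interval 0.02 to 0.60, edgeR adjusted p = 0.0716). DESeq2, a mean of at least 5 CPM, voom, and fits without CGR8 0 h B or 5 h C did call the 5 h rise. The 5 h responses of the lines were not called different (log2 0.07, 95% interval -0.33 to 0.47). With the 6 libraries that stood apart left out, which keeps only replicate B at 5 h, the 5 h value was 0.57.

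Oaz2 (chr9:65668001-65690300, plus strand), the less abundant antizyme mRNA, fell in both lines at 48 h. NIH/3T3 held it at 41.4, 43.1 and 47.7 CPM at 0 h, 38.1, 35.0 and 34.0 CPM at 5 h, and 16.6, 18.5 and 18.4 CPM at 48 h. In CGR8 it was at 39.7, 43.4 and 38.8 CPM at 0 h, 36.0, 33.5 and 30.4 CPM at 5 h, and 23.8, 23.7 and 22.3 CPM at 48 h. No library at 5 or 48 h reached the controls of its line. At 48 h the fall was 0.396-fold in NIH/3T3 (log2 -1.33, SE 0.12, edgeR adjusted p = 2.8e-07) and 0.568-fold in CGR8 (log2 -0.82, SE 0.11, edgeR adjusted p = 6.08e-05). At 5 h it was called in CGR8 (0.790-fold, log2 -0.34, SE 0.11, edgeR adjusted p = 0.0168) and not in NIH/3T3 (log2 -0.27, 95% interval -0.52 to -0.02, edgeR adjusted p = 0.0643), and the CGR8 call ended without 0 h B, without 5 h C, or with the 6 libraries that stood apart left out (adjusted p up to 0.0709). The difference of the 5 h responses between the lines was not called (log2 0.02, 95% interval -0.31 to 0.35).

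Azin1 (chr15:38487427-38519266, minus strand), the antizyme inhibitor, had the largest rise of the 9 genes in NIH/3T3. It was at 224, 245 and 196 CPM at 0 h, 252, 446 and 398 CPM at 2 h, 462, 453 and 449 CPM at 5 h, and 202, 201 and 197 CPM at 48 h. The 2 and 5 h libraries lay above the controls, with NIH/3T3 2 h A, a library that stood apart, the lowest of its group. The rise was 1.68-fold at 2 h (log2 0.75, SE 0.15, edgeR adjusted p = 0.00129, and log2 0.97 without the libraries that stood apart) and 2.10-fold at 5 h (log2 1.07, SE 0.15, edgeR adjusted p = 2.08e-05). At 48 h it was not called (95% interval of the log2 change -0.48 to 0.13), and from 5 to 48 h it fell to 0.421-fold (log2 -1.25, SE 0.15, edgeR adjusted p = 1.74e-06). In CGR8, Azin1 was at 143, 131 and 146 CPM at 0 h, 135, 189.99 and 209 CPM at 5 h, and 162, 158 and 171 CPM at 48 h. CGR8 5 h A, which stood apart, lay among the controls. The 48 h libraries lay above the controls, but no time was called by edgeR (log2 0.29 at 5 h, 95% interval -0.0036 to 0.59, edgeR adjusted p = 0.0907). A mean of at least 5 CPM, voom, and a fit without CGR8 5 h A did call the 5 h rise. Without the 6 libraries that stood apart, which leaves only replicate B at 5 h, the 5 h value was 0.35.

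Of the catabolic genes, Sat1 (chrX:155213132-155216449, minus strand) changed in NIH/3T3 and was not called in CGR8 at any time. In NIH/3T3 it was at 73.2, 71.0 and 73.8 CPM at 0 h, 81.3, 116 and 126 CPM at 2 h, 98.6, 97.8 and 95.2 CPM at 5 h, and 48.3, 46.0 and 43.8 CPM at 48 h. These groups did not overlap the controls. The change was 1.51-fold at 2 h (log2 0.60, SE 0.15, edgeR adjusted p = 0.00729), 1.37-fold at 5 h (log2 0.45, SE 0.15, edgeR adjusted p = 0.0197) and 0.621-fold at 48 h (log2 -0.69, SE 0.15, edgeR adjusted p = 0.00139). Without NIH/3T3 2 h A, the lowest 2 h library, and the others that stood apart the 2 h value was 0.77. The 5 h call ended without NIH/3T3 0 h B or 5 h B (adjusted p up to 0.0529). In CGR8, Sat1 was at 48.5, 40.0 and 52.6 CPM at 0 h and 50.9, 52.1 and 46.9 CPM at 48 h, and the 95% intervals of its log2 change at 5 and 48 h were -0.34 to 0.27 and -0.23 to 0.38.

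Smox (chr2:131491496-131525922, plus strand), the spermine oxidase, had the lowest level per kb at 0 h in both lines and went in opposite directions in the lines at 5 h. NIH/3T3 held it at 22.3, 22.7 and 22.7 CPM at 0 h, 32.6, 30.6 and 33.5 CPM at 5 h, and 23.9, 19.9 and 21.6 CPM at 48 h. CGR8 held it at 9.45, 10.2 and 8.72 CPM at 0 h, 5.82, 5.83 and 3.71 CPM at 5 h, and 7.15, 6.06 and 5.81 CPM at 48 h. The 5 h libraries of NIH/3T3 lay above the controls, and those of CGR8 at 5 and 48 h lay below theirs. The change at 5 h was 1.46-fold in NIH/3T3 (log2 0.55, SE 0.10, edgeR adjusted p = 0.00025) and 0.518-fold in CGR8 (log2 -0.95, SE 0.16, edgeR adjusted p = 0.00014). At 48 h Smox was at 0.665-fold in CGR8 (log2 -0.59, SE 0.15, edgeR adjusted p = 0.00905) and was not called in NIH/3T3 (95% interval -0.29 to 0.13). Without the libraries that stood apart, 5 h A and C among them, the CGR8 value at 5 h was -0.68, from replicate B alone at that time.

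GENCODE M21 annotates transcripts subject to nonsense-mediated decay, which needs translation, in Odc1 (2 transcripts), Azin1 (2), Smox (3), Sms (1) and Sat1 (1), and none in Amd1, Srm, Oaz1 or Oaz2. The counts are per gene and do not separate these transcripts, so their part in the changes was not tested.

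The responses of the lines were compared directly as the CGR8 change minus the NIH/3T3 change. By edgeR, none of the 9 differed at 1 h (1 with an unadjusted p under 0.05, 0 by DESeq2, 0 by voom) or 2 h (2, 0 and 2), where 0.160% and 2.02% of the 17549 genes were called. At 5 h, 2 of 9 differed and both were lower in CGR8, against 13.3% called and 5.09% lower. These were Smox (log2 -1.41, SE 0.18, edgeR adjusted p = 5.32e-06) and Azin1 (log2 -0.69, SE 0.21, edgeR adjusted p = 0.0275). The call of Azin1 ended in 6 of 22 alternatives, each the loss of 1 library (replicate A or C at 0 h of either line, or NIH/3T3 5 h A or C), with adjusted p up to 0.0933.

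At 48 h, 7 of 9 differed, 5 with a higher value in CGR8 and 2 with a lower one, against 21.9% called (9.78% higher, 12.1% lower). The differences were 1.41 on the log2 scale for Sms (SE 0.17, edgeR adjusted p = 6.89e-07), 1.14 for Odc1 (SE 0.17, edgeR adjusted p = 1.21e-05), 0.76 for Srm (SE 0.23, edgeR adjusted p = 0.015) and 0.74 for Sat1 (SE 0.22, edgeR adjusted p = 0.0144). They were 0.50 for Oaz2 (SE 0.16, edgeR adjusted p = 0.0273), -0.42 for Amd1 (SE 0.11, edgeR adjusted p = 0.0045) and -0.53 for Smox (SE 0.18, edgeR adjusted p = 0.0361). Thus 3 of the 4 synthesis genes kept a higher level relative to their own controls in CGR8, and Amd1 a lower one. Oaz1 (95% interval -0.14 to 0.67) and Azin1 (-0.06 to 0.80) were not called. With the 6 libraries that stood apart left out, all 9 were called at 48 h (Oaz1 0.40, Azin1 0.36) and 2 at 2 h (Azin1 -0.73 and Sat1 -0.68), against 34.4% and 4.80% of all genes in that fit. At 5 h, where it keeps only replicate B of CGR8, the differences were -1.34 for Smox, -0.83 for Azin1 and -0.84 for Sat1. The 48 h call of Smox ended in 10 of 22 alternatives (adjusted p up to 0.162), that of Oaz2 in 6 (up to 0.0695), that of Srm without CGR8 48 h B (0.0534) and that of Amd1 without the filter (0.162). The single libraries behind the Smox call were NIH/3T3 0 h A, B or C and 48 h A or C, and CGR8 0 h A or B and 48 h B or C. Those behind the Oaz2 call were NIH/3T3 0 h C and 48 h A, and CGR8 0 h A or C and 48 h B, and leaving out the filter ended both.

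**Figure D3:**
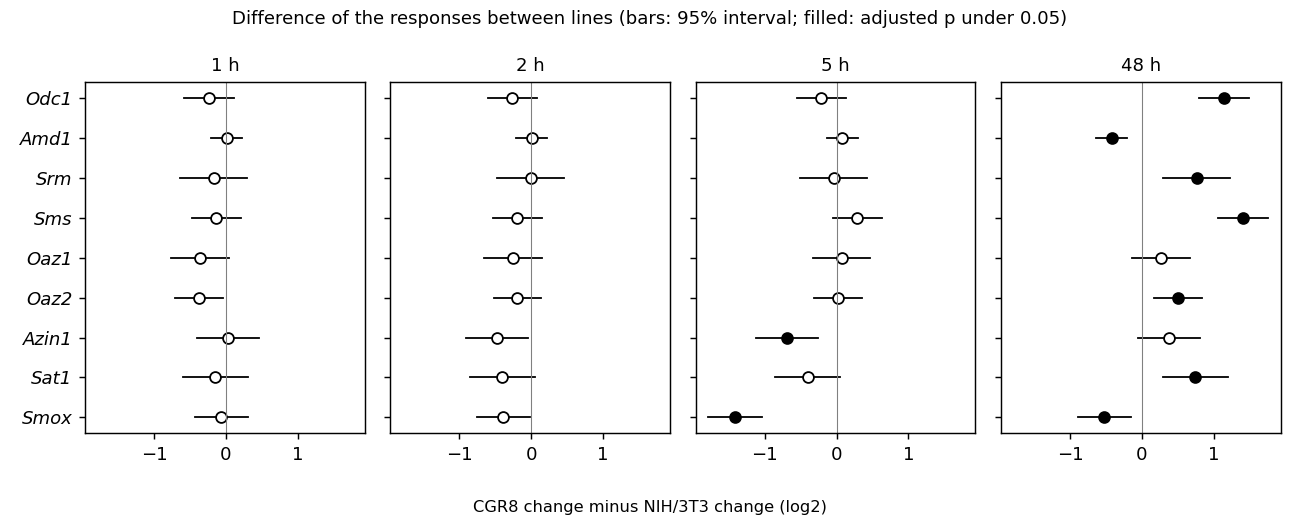
CGR8 change minus NIH/3T3 change, both against 0 h (x axis, log2), of each gene (y axis) at 1, 2, 5 and 48 h; bars are 95% intervals and filled points have an adjusted p under 0.05. At 5 h Smox (-1.41) and Azin1 (-0.69) are filled, and at 48 h 7 genes are, from -0.53 (Smox) to 1.41 (Sms).

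Ratios between members inside a library do not depend on how libraries are scaled to each other. They were computed as ratios of counts per kb and were chosen after the values were seen. The ratio of Oaz1 to Oaz2 in NIH/3T3 was 12.5, 13.2 and 13.3 at 0 h, 14.5, 15.5 and 16.3 at 2 h, 19.9, 19.5 and 19.7 at 5 h, and 30.4, 28.2 and 29.5 at 48 h. In CGR8 it was 10.5, 11.4 and 10.1 at 0 h, 11.8, 11.6 and 13.1 at 2 h, 17.1, 18.4 and 14.4 at 5 h, and 19.8, 21.2 and 20.1 at 48 h. From 2 h on, no library of either line overlapped its controls. The ratio was 2.26-fold of the 0 h value at 48 h in NIH/3T3 and 1.92-fold in CGR8. An exact two-sided permutation test gave p = 0.1 for each of these 6 comparisons, the smallest that 3 against 3 libraries allow, so none can pass 0.05. In all, 32 such ratio comparisons were computed, and the Benjamini-Hochberg adjusted value of each p of 0.1 was 0.291.

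The mRNA of the enzyme was below that of its main antizyme, per kb, at 48 h in NIH/3T3. Raw counts there were higher for Odc1 than for Oaz1 (8140 and 7483 in A, 7339 and 7042 in B, 5926 and 5888 in C). Whether a ratio is above 1 thus depends on the transcript lengths used (2208 bases for Odc1, 1071 for Oaz1). Its fold change does not. The ratio of Odc1 to Oaz1 was above 1 in all 3 libraries at 0 h (1.14 ± 0.105, SD, n = 3) and at 5 h (1.22 ± 0.0780), and below 1 in all 3 at 48 h (0.507 ± 0.0198). Its change at 48 h was 0.447-fold (exact permutation p = 0.1). In CGR8 it was 1.42 ± 0.121 at 0 h and 1.17 ± 0.103 at 48 h, again without overlap (0.827-fold, exact permutation p = 0.1). The ratio of Azin1 to Oaz1 in NIH/3T3 was 0.148 ± 0.0266 at 0 h, 0.246 ± 0.0124 at 5 h and 0.145 ± 0.00666 at 48 h, with no overlap between 0 and 5 h (1.68-fold, exact permutation p = 0.1). In CGR8 it was 0.124 ± 0.0213 at 0 h, 0.174 ± 0.00462 at 1 h, without overlap (1.41-fold, exact permutation p = 0.1), and 0.127 ± 0.0501 at 5 h. The ratio of Sat1 to Odc1 in NIH/3T3 was 0.178 ± 0.00740 at 0 h and 0.275 ± 0.0118 at 48 h, without overlap (1.55-fold, exact permutation p = 0.1). In CGR8 it was 0.125 ± 0.0338 at 0 h, 0.110 ± 0.0196 at 5 h (0.891-fold) and 0.143 ± 0.0161 at 48 h (1.18-fold), with overlap at both times (exact permutation p = 0.6 for each).

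**Figure D4:**
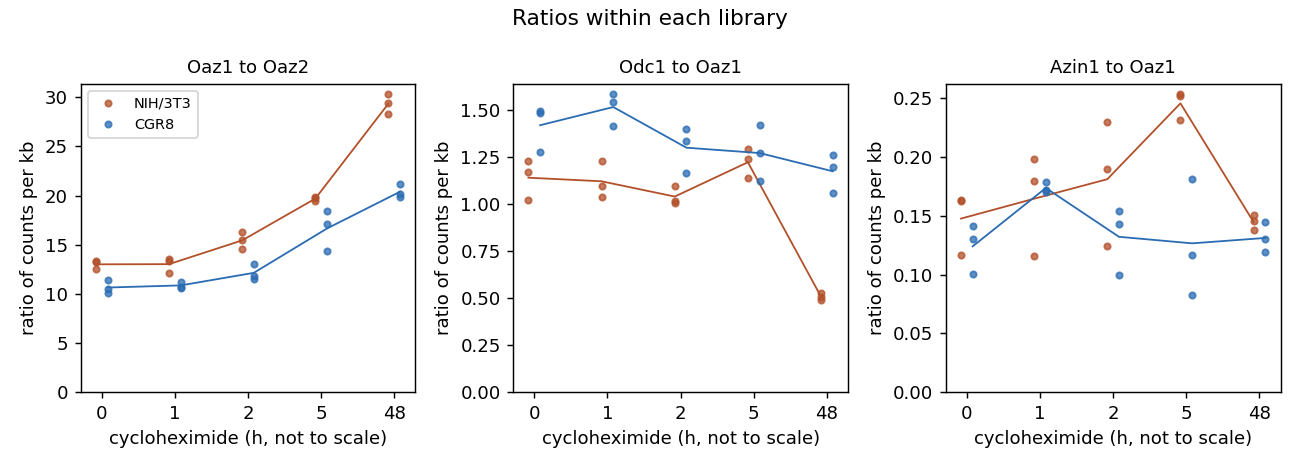
Ratio of counts per kb (y axis, from 0) of Oaz1 to Oaz2, Odc1 to Oaz1 and Azin1 to Oaz1 in each library by hours of cycloheximide (x axis, not to scale); points are libraries and lines join the means of 3 replicates. The Oaz1 to Oaz2 ratio goes from 12.5 to 13.3 at 0 h to 28.2 to 30.4 at 48 h in NIH/3T3, and from 10.1 to 11.4 to 19.8 to 21.2 in CGR8.

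The likeness of profiles was described by Pearson's r of log2 CPM over the 30 libraries, centred on the mean of each line. The libraries share time points, depth and composition, so r is given without a p. Among members, Odc1 and Sms were most alike (r = 0.868, and 0.979 in NIH/3T3 and 0.434 in CGR8 over 15 libraries each), followed by Sms and Sat1 (0.818, and 0.952 and 0.295) and Odc1 and Oaz2 (0.806, and 0.888 and 0.452). In each of these pairs, picked by r over both lines, r was higher in NIH/3T3 than in CGR8. Other pairs went the other way, Odc1 and Oaz1 (0.711 in NIH/3T3, 0.765 in CGR8) among them. Amd1 and Srm were the most unlike (r = -0.692). Among 7019 other genes, the nearest were Pgam5 for Odc1 (r = 0.973), Eif4ebp1 for Oaz2 (0.966), Utp18 for Sms (0.948), Rpl15 for Oaz1 (0.938), Pdcd10 for Azin1 (0.936), Abcf1 for Srm (0.924), Nek9 for Amd1 (0.888) and Snx5 for Sat1 (0.882). For Smox it was Pacsin2 (0.859, of 7020 genes). Within CGR8 alone these values ran from 0.412 (Sat1 and Snx5) to 0.964 (Oaz2 and Eif4ebp1), and within NIH/3T3 from 0.683 (Smox and Pacsin2) to 0.992 (Odc1 and Pgam5).

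Odc1 and Sms, the most alike pair, are shown with the sequence before their starts, since ornithine decarboxylase is a textbook target of Myc, which binds the E-box CACGTG. The stretches are from RefSeq promoter windows (GRCm38.p6), cut to the bases that neither RefSeq nor GENCODE M21 places in the gene, at chr12:17544623-17544793 (plus strand, Odc1) and chrX:157492288-157492537 (minus strand, Sms). They run 5′ to 3′, and the capitals mark each E-box CACGTG and each GC box GGGCGG, searched on both strands.
Odc1: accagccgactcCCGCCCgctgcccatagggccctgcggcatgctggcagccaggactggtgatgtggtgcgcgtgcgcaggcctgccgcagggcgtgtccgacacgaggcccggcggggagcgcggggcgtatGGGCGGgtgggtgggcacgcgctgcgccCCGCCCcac
Sms: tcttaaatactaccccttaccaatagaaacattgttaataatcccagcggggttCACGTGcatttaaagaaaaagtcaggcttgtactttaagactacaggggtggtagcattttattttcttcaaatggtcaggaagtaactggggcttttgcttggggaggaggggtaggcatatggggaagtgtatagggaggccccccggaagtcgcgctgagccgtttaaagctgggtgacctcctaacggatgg
The Odc1 stretch holds 3 GC boxes and no E-box and is 77.2% G or C, and the Sms stretch holds 1 E-box and no GC box and is 47.2% G or C. These stretches leave out the gene itself and bases further upstream. The lack of an E-box in that of Odc1 therefore says nothing of sites there. Whole windows, 250 bases before to 50 after the start, were found for 7 of 9 members (8 windows, none for Azin1 or Srm). The E-box was in a window of Sms alone, against 7.15% of the 32851 promoters searched. The GC box was in 6 of 8 windows, of Amd1, Oaz2, Odc1, Sat1, Smox and Sms, against 35.7%. For Sms it was not within the stretch shown. The TATA box TATAAA was in a window of Oaz1 alone, against 13.6%. The element TATGACTAA, known from the human SAT1 gene as the site of its response to polyamines, was in none of these windows, against 0.0974%. Bases further from the start than the windows reach were not searched, so sites there could not be found. These matches are descriptions of letters and not binding sites.

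A list of 31 other genes of the pathway was read beside the members. It covers the other antizyme genes, catabolism, supply of ornithine and S-adenosylmethionine, salvage of methylthioadenosine, transport, and the hypusine modification of Eif5a, which uses spermidine. The filter kept 20 of them in NIH/3T3 and 21 in CGR8. In NIH/3T3, edgeR called 0 at 1 h (2 with an unadjusted p under 0.05), against 0.732% of all genes. There 4 rose and 2 fell at 2 h (35.0% of all genes called), 5 rose and 7 fell at 5 h (51.0%), and 3 rose and 12 fell at 48 h (52.3%, with 25.6% lower). In CGR8, edgeR called 0 at 1 h (2 with an unadjusted p under 0.05), against 0.270%. There 1 rose and 2 fell at 2 h (19.9%), 8 rose and 5 fell at 5 h (52.1%), and 2 rose and 3 fell at 48 h (27.8%). The total called was near the share over all genes at 2 and 5 h in both lines and at 48 h in CGR8. The median log2 fold change at 48 h was -0.32 in NIH/3T3 and -0.01 in CGR8, beside -0.0088 and -0.0027 for all genes.

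In CGR8 the largest falls of the list against 0 h were those of 2 transport genes, Slc7a1 and Atp13a2. Slc7a1, which imports arginine, was at 362 ± 21.1 CPM (SD, n = 3) at 0 h in NIH/3T3, 179 ± 11.1 CPM at 5 h and 195 ± 8.08 CPM at 48 h. CGR8 held it at 199 ± 2.10 CPM, 38.8 ± 9.72 CPM and 66.2 ± 18.3 CPM. It fell to 0.507-fold at 5 h in NIH/3T3 (log2 -0.98, SE 0.13, edgeR adjusted p = 1.38e-05) and to 0.188-fold in CGR8 (log2 -2.41, SE 0.21, edgeR adjusted p = 5.97e-07). These responses differed by -1.34 on the log2 scale (SE 0.24, edgeR adjusted p = 0.000365). Atp13a2, a lysosomal polyamine exporter, fell to 0.445-fold at 5 h in NIH/3T3 (16.6 ± 1.64 to 7.20 ± 0.832 CPM, log2 -1.17, SE 0.15, edgeR adjusted p = 8.96e-06) and to 0.431-fold in CGR8 (29.8 ± 1.20 to 13.3 ± 0.680 CPM, log2 -1.21, SE 0.11, edgeR adjusted p = 1.15e-06). At 48 h it was above the controls in NIH/3T3 (24.3 ± 1.31 CPM, log2 0.52, SE 0.14, edgeR adjusted p = 0.0042) and not called in CGR8 (30.7 ± 1.09 CPM, 95% interval of the log2 change -0.20 to 0.26).

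Azin2, the second antizyme inhibitor, rose in both lines at 48 h. It went from 6.22 ± 0.311 to 14.8 ± 0.239 CPM in NIH/3T3 (2.33-fold, log2 1.22, SE 0.11, edgeR adjusted p = 1.88e-07) and from 2.37 ± 0.331 to 4.56 ± 0.354 CPM in CGR8 (1.90-fold, log2 0.93, SE 0.17, edgeR adjusted p = 0.000897). It overlaps the antisense gene Gm15904, and whether counting used strand is not given in the sources used here. Azin1 was not called at 48 h in either line. Dohh, the hydroxylase that completes hypusine, fell to 0.433-fold at 48 h in NIH/3T3 (60.8 ± 7.33 to 26.9 ± 1.06 CPM, log2 -1.21, SE 0.17, edgeR adjusted p = 1.92e-05) and was not called in CGR8 (95% interval -0.46 to 0.24), a difference of 1.08 between the lines (SE 0.25, edgeR adjusted p = 0.00188). It overlaps the protein-coding gene Gm48551 on the same strand. Eif5a2, a relative of the factor that carries hypusine, went from 4.61 ± 0.908 to 2.91 ± 0.177 CPM at 48 h in NIH/3T3 (log2 -0.69, SE 0.19, edgeR adjusted p = 0.00567). In CGR8 it went from 15.5 ± 1.78 to 27.0 ± 2.06 CPM (log2 0.78, SE 0.16, edgeR adjusted p = 0.00141). The fall and the rise differed by 1.46 on the log2 scale (SE 0.25, edgeR adjusted p = 7.57e-05). Sat2, a relative of Sat1, was called higher at 5 h in CGR8 (log2 2.05, SE 0.54, edgeR adjusted p = 0.00508) on 3 to 7 counts per library at 0 h and 6 to 22 at 5 h.

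**Figure D5:**
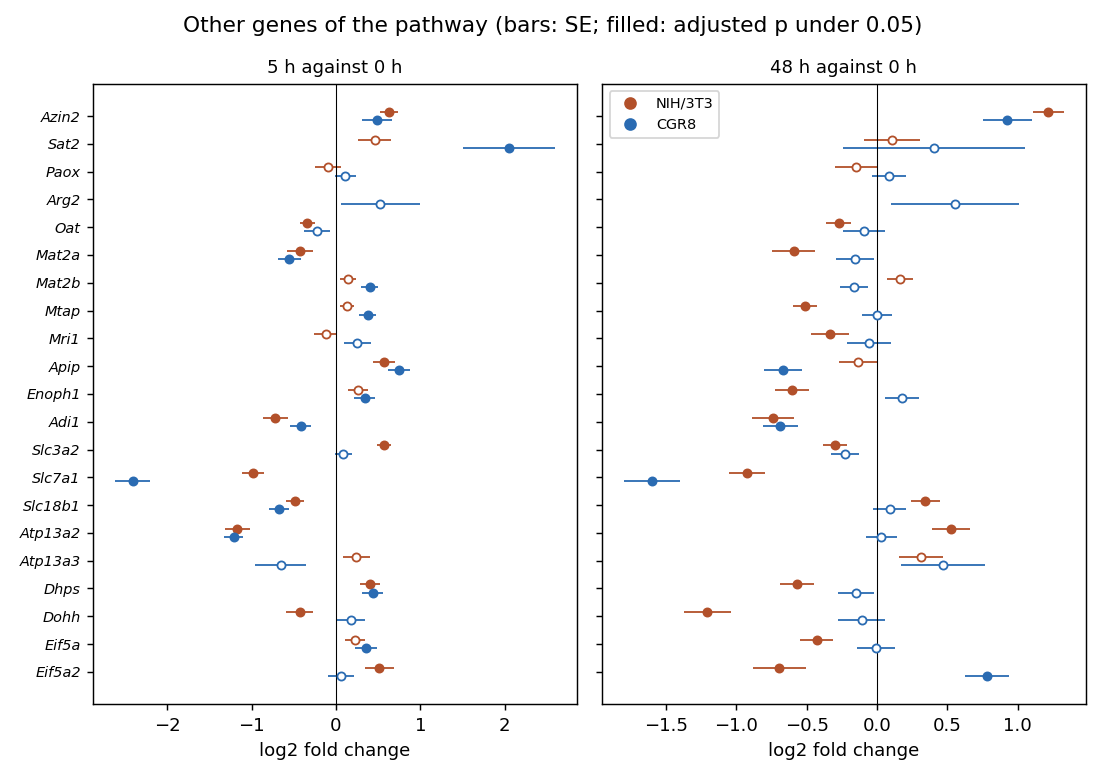
log2 fold change against 0 h (x axis) at 5 h (left) and 48 h (right) of the other pathway genes that passed the filter (y axis); bars are SE, filled points have an adjusted p under 0.05, NIH/3T3 is orange and CGR8 blue. Slc7a1 is the lowest point of CGR8 at both times (-2.41 and -1.60), and Azin2 the highest of NIH/3T3 at 48 h (1.22).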

How the data were processed

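RNA was extracted with the RNeasy kit and made into Illumina stranded mRNA ligation libraries, per the labels' protocols. The authors deposited a table of counts per Ensembl gene for 30 libraries. STAR, DESeq2 and the build GRCm39 are named in the submitters' processing notes. Their roles, the counting tool, its use of strand and the annotation are not given in the sources used here. Of the 57186 identifiers, 51880 (90.7%) matched a GENCODE M21 symbol, 37017 held a count, and coordinates here are GRCm38.

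Counts were tested with edgeR 4.0.16 (R 4.3.3): filterByExpr (at least 10 counts, 15 in total), TMM factors, glmQLFit and glmQLFTest, Benjamini-Hochberg adjustment over all genes tested. Each line was fitted on its 15 libraries, and line differences on all 30, each time as its own coefficient. CPM use the factors of the 30-library fit. Members, lists and tests were chosen with earlier results of these data known. Named were the 9 members, pathway genes called with a log2 change of at least 1 in size against 0 h, or in the difference of such changes between the lines (at most 8), rows sharing sequence with a member, and for each member the gene with the highest r of at least 10 CPM per line. Alternatives were RLE factors, library totals, DESeq2 1.42.0, no filter, a mean of at least 5 CPM, a replicate block, voom with quality weights (limma 3.58.1), copies summed, only the groups compared, each library left out, and, added after seeing the data, the 6 distant libraries left out. The fits were tested on simulated counts. Replicates differed beyond sampling noise (CGR8 1 h B and C least, chi-square divided by its degrees of freedom 1.67), so none was treated as a duplicate.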

Additional observations from a re-analysis of the deposited data

Results flagged for a closer look

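The changes from 0 h differed between the lines by a direct test of the difference for 7 members at 48 h and 2 at 5 h (edgeR quasi-likelihood test, CGR8 change minus NIH/3T3 change, log2). Of all genes tested, 21.9% and 13.3% differed at these times. At 48 h the differences were 1.14 for Odc1, 1.41 for Sms, 0.76 for Srm, 0.74 for Sat1, 0.50 for Oaz2, -0.42 for Amd1 and -0.53 for Smox. At 5 h they were -1.41 for Smox and -0.69 for Azin1. For Sms at 48 h and Smox at 5 h, the lines were called in opposite directions. The 48 h call of Smox ended in 10 of 22 alternatives, that of Oaz2 in 6, those of Srm and Amd1 in 1 each, and the 5 h call of Azin1 in 6. With the libraries that stood apart left out, which keeps only replicate B at CGR8 5 h, the 5 h differences were -1.34 for Smox and -0.83 for Azin1. In these differences time in culture cannot be told apart from the drug, nor the medium from the line. The part of the ribosomal protein level, given with the results, was not tested.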

How the results depend on the processing

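No called value of the 9 members changed sign. Of 135 values (9 genes, 15 comparisons), the call was the same in 133 with RLE factors, 128 with library totals, 132 with DESeq2, 129 without a filter, 131 with genes of 5 CPM or more on average, 129 in fits of only the groups compared, 114 with voom quality weights (21 gained, 0 lost) and 112 without the 6 distant libraries (22 gained, 1 lost). Members called moved by over 1.5 times as follows. With voom quality weights they were 2 at NIH/3T3 1 h (20.7% of all genes called, 0.732% in the edgeR fit), 8 at 2 h (56.1%, 35.0%), 1 at CGR8 1 h (6.55%, 0.270%), 8 at CGR8 5 h (63.1%, 52.1%), 5 from 5 to 48 h in CGR8 (64.5%, 57.5%) and 2 for the line difference at 2 h (4.04%, 2.02%). Without the 6 distant libraries they were 2 at NIH/3T3 1 h (14.7% of all genes called), 2 at CGR8 2 h (32.2%) and 2 for the line difference at 2 h (4.80%). In that fit, comparisons that use CGR8 5 h rest on replicate B alone there and are not listed. The counts of 112, 22 and 1 given above for that fit include them. Without a filter the members called were 4 for the line difference at 48 h (9.58% of 37017 genes). The cause was not tested. Leaving out 1 library gave 3 to 5 at NIH/3T3 2 h, 5 to 7 at 5 h, 3 to 6 at CGR8 5 h, 2 to 3 at CGR8 48 h, 1 to 4 from 5 to 48 h in CGR8, 3 to 4 between lines at 0 h, and 0 to 1, 1 to 2 and 4 to 7 for the line difference at 2, 5 and 48 h. Of 1026 such values, 45 lost a call and 8 gained one, in fits with 14 or 29 libraries whose pair of replicates is tested with the spread of all groups. Library totals moved the median of all genes by -0.10 (log2) at CGR8 5 h and by -0.19 for the line difference at 5 h. The Oaz1 to Oaz2 ratio at 48 h stayed between 1.14 and 1.20 (log2) in NIH/3T3 and between 0.90 and 0.99 in CGR8 with 1 library left out.

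Replicate letters are shared by the groups, but same-letter libraries did not deviate together (mean r 0.05, from -0.53 to 0.57, in NIH/3T3 and 0.04, from -0.78 to 0.72, in CGR8). In each line, 6 of 15 libraries correlated best with their own letter. A replicate block kept 134 of 135 calls and gained 1, so the members called from 5 to 48 h in CGR8 went from 3 to 4.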

Other observations

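Beside the members, the table holds rows for their processed pseudogenes and for Amd2, a protein-coding near-copy of Amd1 (99.6% identity over 3202 aligned bases). Sms-ps, identical to Sms over 1101 aligned bases, held 53 to 283 counts per library, 5.28% as many as Sms on average. Gm7993 held 683 to 2878 counts, Oaz1-ps 140 to 339, Amd2 32 to 183 (2.43% of Amd1) and Oaz2-ps 3 to 24 (1.53% of Oaz2). No copy of Smox with at least 90% identity over 200 bases was found among the GENCODE M21 transcripts, and the antisense gene Gm49077, which overlaps Azin1, held 0 to 5 counts.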
